A study of Mus musculus with 4 samples.

Results

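Hepcidin and iron control was described here through 10 genes measured in mouse liver: the hepcidins Hamp and Hamp2, the transferrin receptors Tfrc and Tfr2 with the receptor partner Hfe, the BMP-SMAD genes Bmp6, Id1, Smad6 and Smad7, and the iron exporter Slc40a1. The genes were found by their platform gene symbols, each by 1 probe set, among 21789 probe sets with 1 symbol for 19938 genes. The set was chosen by name, with the levels and KO minus WT differences on these same 4 arrays already known, so their levels and differences are descriptions and carry no test. All 10 passed a filter on low values, which left 13073 probe sets.

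The study compared the livers of mice with a conditional SIRT6Co/Co allele together with Alb-Cre, labelled KO, and of WT SIRT6 mice, at 8 and at 2 months of age. Cre under the albumin promoter acts mainly in hepatocytes, and its action in other liver cells of the KO group was not examined here. SIRT6 is a deacetylase on chromatin that uses NAD. Each of the 4 groups is 1 array, made from RNA combined from 3 pairs of mice, so the spread between animals or pools of a group cannot be measured and only the number of arrays sets the precision. The sources used here name no strain, sex or feeding state. Levels are RMA values on the log2 scale, on which a difference of 1 is a doubling.

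The Sirt6 probe set did not separate the genotypes. It read 4.46 at 8 months and 4.54 at 2 months in the KO-labelled arrays, against 4.50 and 4.55 in the WT-labelled arrays. The 4 values lay within 0.09 of each other. The sources used here do not say whether its probes lie in exons that the conditional allele deletes, so it does not check the labels, and every genotype difference below rests on them. Hepatocyte markers such as albumin were high on all arrays, with a mean level over 9 markers of 12.01 at 8 months and 12.06 at 2 months in the KO-labelled arrays, against 12.09 and 12.04 in the WT-labelled arrays. None of the 9 passed the additive test described below, where 9.98% of all probe sets were called. Ttr and Tat were highest in KO minus WT, with means over the ages of 0.13 and 0.11. Cps1 and Apoa1 were lowest, with -0.24 and -0.23.

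Hepcidin is a peptide hormone that hepatocytes secrete to limit the entry of iron into plasma: it binds the exporter ferroportin, the product of Slc40a1, and has it degraded. Its main transcriptional input is BMP6, made by sinusoidal endothelial cells, which acts through BMP receptors and the coreceptor hemojuvelin on SMAD proteins, with HFE and TFR2 reporting transferrin-bound iron, and inflammation adds a further input through interleukin 6 and STAT3. Mice carry a duplicated gene. In transgenic mice an excess of Hamp caused anemia, whereas an excess of Hamp2 did not.

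The promoters of the hepcidin genes are shown as background. Whether any base that differs between them bears on the readings of these arrays was not tested. The lines below give the 250 bases before the start site, from RefSeq on GRCm38.p6, 5′ to 3′ on the minus strand of chromosome 7, at chr7:30944030-30944279 for Hamp and chr7:30924182-30924431 for Hamp2. Capitals mark the BMP-responsive element of Hamp, or the bases of Hamp2 aligned with it, and after it the STAT site.
Hamp: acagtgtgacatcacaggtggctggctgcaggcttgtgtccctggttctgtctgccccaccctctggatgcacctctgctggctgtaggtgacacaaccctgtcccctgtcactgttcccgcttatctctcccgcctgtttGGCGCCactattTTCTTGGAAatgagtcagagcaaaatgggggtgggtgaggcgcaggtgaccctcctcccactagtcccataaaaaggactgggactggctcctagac
Hamp2: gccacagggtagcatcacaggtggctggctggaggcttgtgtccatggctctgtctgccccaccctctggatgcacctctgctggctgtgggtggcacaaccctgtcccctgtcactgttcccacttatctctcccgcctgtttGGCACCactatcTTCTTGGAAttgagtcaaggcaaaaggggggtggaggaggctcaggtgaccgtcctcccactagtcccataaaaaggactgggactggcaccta
The windows aligned over 247 bases, of which 91.9% were identical and 20 were substituted. The BMP-responsive element GGCGCC of Hamp began 109 bases before the start site. In Hamp2 it carried the substitution G145A, counted from 1 at the 5′ end of the Hamp window, and read GGCACC. The STAT pattern TTCNNNGAA matched as TTCTTGGAA in both genes, beginning 97 bases before the start site in Hamp and 94 in Hamp2. The AP-1 pattern TGANTCA matched as TGAGTCA in both, just downstream of the STAT site and without overlap. All patterns searched read the same on both strands. Over all 32851 promoter windows of this length in the table, 9.59% held GGCGCC, 7.02% the STAT pattern and 6.75% the AP-1 pattern. The E-box CACGTG and the SMAD box GTCTAGAC, held by 6.02% and 0.167% of windows, had no match in either gene. Among the other members in the table, Tfrc held GGCGCC in 1 of its 2 windows, Hfe the AP-1 pattern and Bmp6 the E-box, and the windows of Tfr2 and Smad6 matched none of the 5 patterns.

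Hamp2 stood far above the other members in its genotype difference. It read 7.24 at 8 months and 7.30 at 2 months in the KO-labelled arrays, against 4.89 and 4.93 in the WT-labelled arrays. Both KO-labelled arrays were high and both WT-labelled arrays low, with a gap of 2.32 between the groups. The KO-labelled arrays exceeded the WT-labelled ones by 2.35 at 8 months and by 2.38 at 2 months, ratios of 5.10 and 5.20. These differences ranked 12 from the top at 8 months and 21 at 2 months among the 13073 probe sets. Within a genotype the ages were close: 8 minus 2 months was -0.06 in KO-labelled arrays and -0.03 in WT-labelled arrays, with the sign of the KO value turning under a repeated quantile normalization.

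Hamp, the hormone gene proper, did not share this pattern. It read 10.84 at 8 months and 11.08 at 2 months in the KO-labelled arrays, against 10.85 and 10.75 in the WT-labelled arrays. The KO-labelled array at 2 months was the high one, and the genotypes overlapped. The difference, KO minus WT, was -0.01 at 8 months, with a sign that turned under repeated quantile normalization, and 0.33 at 2 months. The genes are near-copies, and the probe sequences were not used here, so whether either probe set also binds RNA of the other was not tested. In bulk liver RNA, fewer cells of a type and less RNA per cell cannot be told apart, here and for every gene below.

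**Figure D1:**
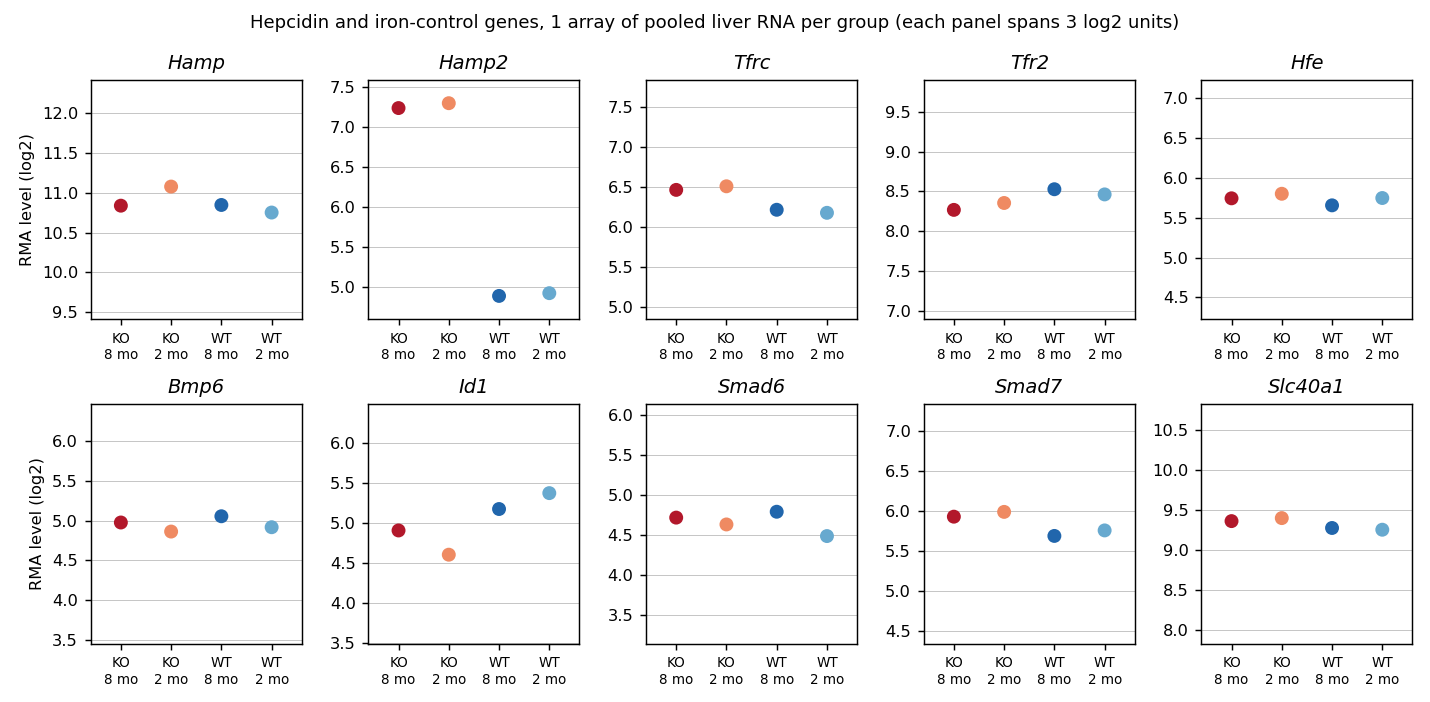
RMA levels (log2, y axis) of the 10 genes on the 4 arrays (x axis: KO at 8 and 2 months, then WT at 8 and 2 months), 1 point per array of pooled RNA, with every panel spanning the same log2 range. Hamp2 lies at 7.24 and 7.30 in KO-labelled arrays and at 4.89 and 4.93 in WT-labelled arrays, while Id1 spans 0.77 and the panels of the other 8 genes span less.

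The pancreas is another known site of Hamp2 expression in mice, and levels of acinar cell markers are given here. The part of such cells in the Hamp2 values was not tested. Of 12 acinar genes, 9 were on the array with 1 symbol and 4 passed the filter on low values. The trypsinogen Prss2 was below the filter at 2.86 and 2.80 in the KO-labelled arrays at 8 and 2 months, against 3.09 and 3.19 in the WT-labelled arrays. The carboxypeptidase Cpa1 was below it as well, at 3.05 and 2.93 against 3.40 and 3.35. These were the lowest of the 9 in KO minus WT, and other members of the list went the other way. Cpb1, a further carboxypeptidase, was the highest, at 0.27 at 8 months and 0.12 at 2 months, below the filter as well, and the chymotrypsinogen Ctrb1 was next, at 0.05 and 0.18. The elastases past the filter differed among themselves, with Cela3b at 0.49 and -0.35, Cela1 at 0.05 and 0.04 and Cela2a at -0.23 and -0.39. The mean level of the 4 markers past the filter was 4.30 and 4.09 in the KO-labelled arrays, against 4.21 and 4.22 in the WT-labelled arrays, so that it was higher in KO-labelled arrays at 8 months and lower at 2 months.

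The protein-coding genes next to the hepcidins on chromosome 7, chosen after their values were seen, differed less between genotypes. Usf2, an E-box transcription factor next to Hamp, was at 0.17 at 8 months and 0.21 at 2 months for KO minus WT. The lipoprotein receptor gene Lsr, the neighbour beyond it, read 8.01 and 8.07 in the KO-labelled arrays, against 7.41 and 7.52 in the WT-labelled arrays. Both KO-labelled arrays were higher, by 0.60 at 8 months and 0.54 at 2 months. On the other side of Hamp2, the myelin gene Mag was at -0.34 and -0.06.

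**Figure D2:**
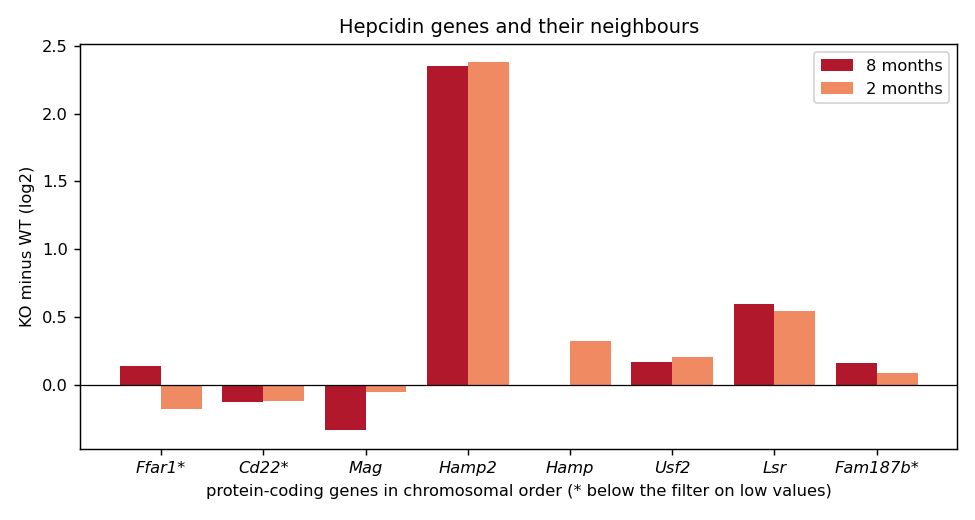
KO minus WT differences (log2, y axis) at 8 and at 2 months for Hamp2, Hamp and the 3 protein-coding genes on either side in chromosomal order (x axis), each bar a difference of 2 arrays. Hamp2 reaches 2.35 and 2.38 while the largest neighbouring bar, for Lsr, is 0.60; the bar of Hamp at 8 months is -0.01 and barely visible.

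The 3 named probe sets whose profile over the 4 arrays was nearest to that of Hamp2, by the root mean square distance between mean-centred levels, were those of Egr1, Nr4a1 and Dnajb1. The distances were 0.03, 0.03 and 0.06 log2 units among 12339 probe sets compared. Egr1, an immediate early transcription factor, was at 2.28 and 2.37 for KO minus WT at 8 and 2 months. Nr4a1, an immediate early nuclear receptor, was at 2.42 and 2.39, and the heat shock cochaperone Dnajb1 at 2.31 and 2.21. Likeness over 4 arrays describes only that the same genotype step was seen.

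Tfrc encodes the transferrin receptor that carries iron into most cells, and its messenger is stabilised when cells are short of iron. It read 6.46 at 8 months and 6.50 at 2 months in the KO-labelled arrays, against 6.21 and 6.17 in the WT-labelled arrays. The genotypes did not overlap, and the KO-labelled arrays were higher by 0.25 at 8 months and 0.33 at 2 months, ratios of 1.19 and 1.26. The nearest profiles were those of Ermp1, Uap1 and Aldh5a1, all within 0.01 log2 units.

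Tfr2, the hepatocyte receptor that senses transferrin-bound iron, was on the lower side in the KO-labelled arrays. It read 8.27 at 8 months and 8.36 at 2 months there, against 8.53 and 8.46 in the WT-labelled arrays. The groups did not overlap, with KO minus WT of -0.26 and -0.11. Hfe, the partner that associates with both receptors, read 5.74 and 5.80 in the KO-labelled arrays, against 5.65 and 5.74 in the WT-labelled arrays. Its groups overlapped, and the 2-month difference of 0.05 changed sign under repeated quantile normalization.

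Bmp6, the ligand, read 4.98 at 8 months and 4.86 at 2 months in the KO-labelled arrays, against 5.05 and 4.92 in the WT-labelled arrays. The groups overlapped, and KO minus WT was -0.08 and -0.05, the value at 2 months turning positive under median centring. Both genotypes were slightly higher at 8 months, by 0.11 in KO-labelled and 0.14 in WT-labelled arrays. Markers of the sinusoidal endothelial cells that make BMP6 had a mean level of 5.96 and 6.08 in the KO-labelled arrays, against 5.90 and 5.94 in the WT-labelled arrays. Of their 12 tested genes 1 rose in the additive model given below, where 6.11% of all probe sets did. It was the junction cadherin Cdh5, with a mean difference of 0.45. The hyaluronan receptor Lyve1 was at 0.26 at 8 months and 0.63 at 2 months, while the scavenger receptors Stab1, at -0.25 and -0.12, and Stab2, at -0.15 and -0.04, had negative differences. None of these 3 passed, and the part of these cells in the Bmp6 values was not tested.

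Id1, a helix-loop-helix inhibitor and a standard readout of BMP signalling in liver, had the lowest KO minus WT difference of the members. It read 4.90 at 8 months and 4.60 at 2 months in the KO-labelled arrays, against 5.17 and 5.37 in the WT-labelled arrays. Both KO-labelled arrays were lower, and the gap was widest at 2 months: the difference was -0.27 at 8 months and -0.77 at 2 months. The ages ran in opposite directions, with 8 minus 2 months at 0.30 in KO-labelled and -0.20 in WT-labelled arrays, and whether the genotype difference itself changed with age cannot be tested with 1 array per group. The nearest profiles were those of Zfp750, Pold1 and Glt28d2, at distances of 0.030, 0.034 and 0.035 log2 units.

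The inhibitory SMADs, which BMP signalling induces and which feed back on it, did not follow Id1. Smad7 read 5.93 at 8 months and 5.99 at 2 months in the KO-labelled arrays, against 5.69 and 5.76 in the WT-labelled arrays, so that it was higher by 0.24 and 0.23 without overlap. Smad6 read 4.72 and 4.63, against 4.79 and 4.49. Its groups overlapped and its differences had opposite signs, -0.07 and 0.15. The largest step of Smad6 was with age in the WT-labelled arrays, at 0.30.

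Slc40a1 encodes ferroportin, the only known cellular iron exporter of vertebrates, and is active in Kupffer cells as well as hepatocytes. It read 9.36 at 8 months and 9.40 at 2 months in the KO-labelled arrays, against 9.27 and 9.25 in the WT-labelled arrays. The KO-labelled arrays were higher by 0.09 and 0.15. Kupffer cell markers were also higher there, with a mean level of 5.43 and 5.56 over 11 tested markers, against 5.10 and 5.30. In 8 of the 11 both KO-labelled arrays exceeded both WT-labelled arrays, as in 28.9% of all probe sets. Cd5l and Vsig4 rose in the additive model, by means of 0.72 and 0.49, where 6.11% of all probe sets rose. The lowest were Clec4f, at 0.06 at 8 months and -0.04 at 2 months, and C1qc, at 0.07 and 0.09, and the part of these cells in the Slc40a1 values was not tested.

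Counted over the 10 genes, 1 was at least 1.5-fold apart between genotypes at 8 months, Hamp2, where 4.44% of all probe sets past the filter were. At 2 months there were 2, Hamp2 and Id1, where 6.83% of all were. Hamp2 was the member past this fold at both ages, where 2.82% of all were. In 6 genes the KO-labelled and WT-labelled arrays did not overlap, 4 with higher and 2 with lower KO values. The same held for 54.4% of all probe sets, 28.9% with higher and 25.4% with lower KO values. The median KO minus WT difference of the members was 0.04 at 8 months and 0.15 at 2 months, against 0.00 and 0.02 over all probe sets. Between the ages, 0 of the 10 genes were 1.5-fold apart in either genotype, against 0.849% of all probe sets in KO-labelled and 0.719% in WT-labelled arrays.

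**Figure D3:**
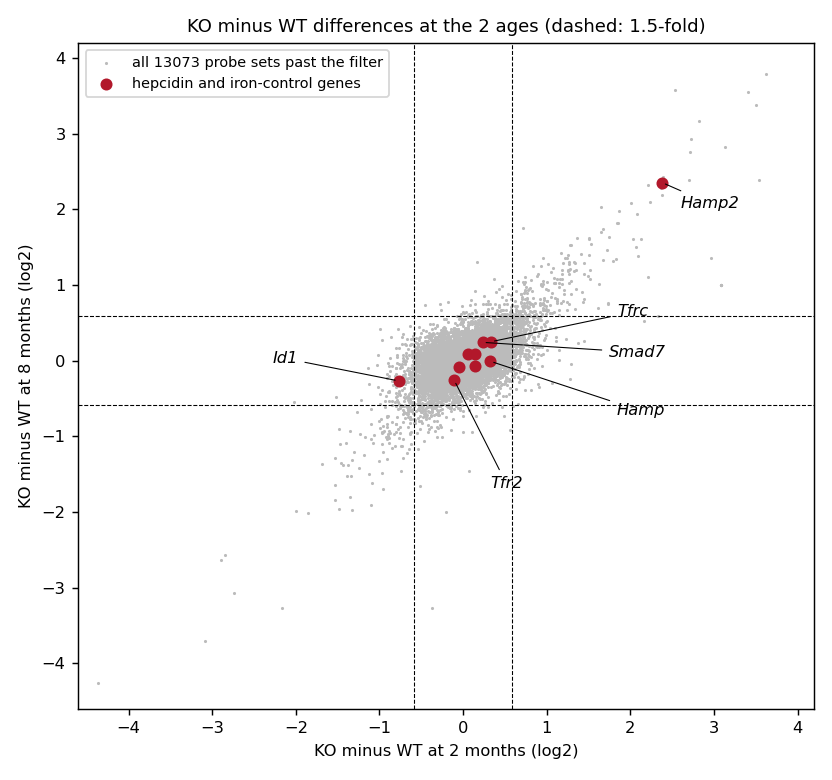
KO minus WT differences (log2) at 2 months (x axis) and 8 months (y axis) for all 13073 probe sets past the filter (grey) and the 10 genes (red), with dashed lines at 1.5-fold. Hamp2 lies in the upper right arm, at 2.35 for 8 months and 2.38 for 2 months, Id1 at -0.27 and -0.77, and the other genes sit inside the dashed square.

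The wider pathway was read from 6 lists of genes that hold none of the 10, chosen with earlier results of these data known. An additive limma model of genotype and age over all 4 arrays was used as the test, with Benjamini-Hochberg adjustment over the 13073 probe sets. It called 9.98% of all probe sets for genotype, 6.11% higher and 3.87% lower in KO-labelled arrays. It called 16 of the 110 tested pathway probe sets, in 16 of 103 genes, 8 that rose and 8 that fell. Their median was -0.02 at 8 months and -0.03 at 2 months, against 0.00 and 0.02 over all probe sets. The calls for Smad9, Hes1, Il6ra, Socs3, Il1b, Steap4, Lcn2 and Cpox held under all 5 alternative settings, and the other 8 were lost when probe sets with low values were also tested. The model has 1 residual degree of freedom per probe set, so its p-values weigh genotype against departure from additivity and not against the spread between pools.

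**Figure D4:**
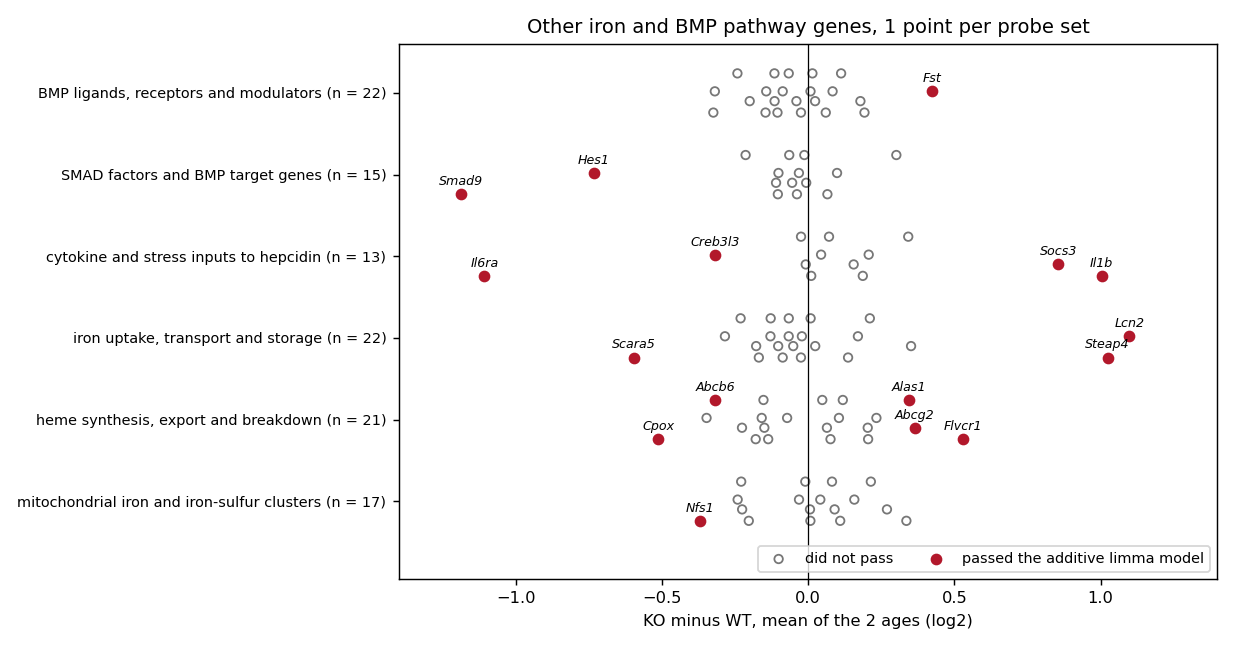
Mean KO minus WT difference of the 2 ages (log2, x axis) for each tested probe set of the 6 pathway lists (rows, with the number of probe sets), filled red where the additive limma model passed. Smad9, Il6ra and Hes1 mark the low end, Lcn2, Steap4, Il1b and Socs3 the high end, and most open points lie within 0.35 of 0.

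Of 22 genes for BMP ligands, receptors and modulators 1 rose and 0 fell, where 9.98% of all probe sets were called, and the medians were -0.06 at 8 months and -0.11 at 2 months. The KO-labelled arrays lay above the WT-labelled ones in 4 of the 22 probe sets and below them in 10, against 28.9% and 25.4% of all. Of the lists below, iron uptake had 6 above and 11 below of 22 probe sets, and heme 6 and 10 of 21. The SMAD list had 1 and 4 of 15, the cytokine list 6 and 3 of 13, and the iron-sulfur list 7 and 5 of 17. In the BMP list the gene that rose was follistatin (Fst), which binds activins and some BMPs, at 0.39 and 0.46 (limma adjusted p 0.032). The activin receptor Acvr2a followed at 0.25 and 0.14 without passing. The receptors Acvr2b, at -0.31 and -0.34, and Acvrl1, at -0.38 and -0.26, were lowest without passing. Hemojuvelin (Hjv) was at -0.26 and -0.23 with a limma adjusted p of 0.13, and the protease Tmprss6, which cleaves it, at -0.07 and -0.10. Hjv and Tmprss6 were named after their values were seen.

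Among 14 SMAD factors and BMP target genes 2 fell and 0 rose, where 9.98% of all probe sets were called. The list medians were -0.11 and -0.04. Smad9, a receptor-activated SMAD of the BMP branch, read 4.11 at 8 months and 4.03 at 2 months in the KO-labelled arrays, against 5.01 and 5.51 in the WT-labelled arrays. The groups lay apart, and it fell by 1.19 on the log2 scale as the mean of both ages (SE 0.15, limma adjusted p 0.00038, 2 arrays per genotype). Hes1, a repressor best known as a Notch target, fell by 0.73 (adjusted p 0.0013). Smad5, which transmits the signal, was at 0.11 and 0.08, and the ubiquitin ligase Smurf1 at 0.27 and 0.33 without passing. The BMP target genes Id2, Id3, Id4 and Atoh8, named after their values were seen, did not pass. Id2 was at -0.39 and -0.04, Id3 at 0.09 and -0.29, Id4 at -0.05 and -0.16, and Atoh8 at 0.25 and -0.12.

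Of 12 tested genes of cytokine and stress inputs 2 rose and 2 fell, where 9.98% of all probe sets were called. The list medians were -0.02 and 0.11. Il6ra, the interleukin 6 receptor, read 6.41 at 8 months and 6.55 at 2 months in the KO-labelled arrays, against 7.71 and 7.46 in the WT-labelled arrays. It fell by 1.11 (SE 0.11, limma adjusted p 4.7e-05). Creb3l3, a liver factor activated by endoplasmic reticulum stress, fell by 0.32 (adjusted p 0.033). Il1b, an inflammatory cytokine of macrophages, rose by 1.00 (adjusted p 0.00037). The mean level of Kupffer cell markers was also higher in the KO-labelled arrays, as given above. The part of these cells in the Il1b values was not tested. Socs3, a STAT3 target that blocks the receptor, rose by 0.86 in 1 probe set (adjusted p 0.0010), while a second, dimmer probe set was at -0.20 and 0.29. Il6 itself was below the filter on low values.

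Iron uptake, transport and storage had 2 of 21 tested genes that rose and 1 that fell, where 9.98% of all probe sets were called. The list medians were -0.06 and -0.02. The genes that rose were Lcn2, which binds bacterial siderophores, by 1.10 (limma adjusted p 4.1e-05), and the metalloreductase Steap4 by 1.02 (adjusted p 7.5e-06). Steap4 read 9.60 and 9.56 in the KO-labelled arrays, against 8.56 and 8.56 in the WT-labelled arrays. Scara5, a ferritin receptor, fell by 0.60 (adjusted p 0.030), with -0.87 at 8 months and -0.32 at 2 months. Ireb2, an iron regulatory protein, was at -0.39 and -0.18 without passing. The ferritin chains Fth1 and Ftl1 and transferrin (Trf), named after their values were seen, lay between -0.06 and 0.06 at both ages.

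The heme list held 20 tested genes, with 3 that rose and 2 that fell, where 9.98% of all probe sets were called. Its medians were 0.03 and -0.05. At its low end was Cpox, an enzyme of the late pathway, which fell by 0.51 (limma adjusted p 0.0019), followed by Flvcr2, a membrane transporter, at -0.44 and -0.26 without passing. The heme exporter Flvcr1 rose by 0.53 in 1 probe set (adjusted p 0.023), while its second was at -0.02 and -0.29. The porphyrin exporter Abcg2 rose by 0.36 (adjusted p 0.026). The rate-limiting synthase Alas1 rose by 0.34 (adjusted p 0.017) and the porphyrin transporter Abcb6 fell by 0.32 (adjusted p 0.046), both named after their values were seen. Erythroid markers were few: 5 of 14 were on the array with 1 symbol. Of the 3 tested 1 rose, where 6.11% of all probe sets did. It was the erythroid synthase Alas2, by 0.64. Of the other tested markers, the erythroid factor Klf1 was lower in the KO-labelled arrays, at -0.38 and -0.43, and the anion exchanger Slc4a1 was at 0.28 and 0.15, and neither passed.

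Of 14 tested genes of mitochondrial iron and iron-sulfur clusters, 0 rose and 1 fell, where 9.98% of all probe sets were called. The list medians were 0.01 and 0.07. The gene that fell was Nfs1, the cysteine desulfurase of cluster assembly, at -0.40 at 8 months and -0.33 at 2 months (limma adjusted p 0.025). The iron importer Slc25a37 was highest, at 0.38 and 0.29, and the scaffold gene Iscu followed at 0.31 and 0.12 and, in a second probe set, at 0.35 and 0.19. Iba57, a factor of cluster assembly, was second lowest, at -0.10 and -0.38. None of these passed.

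For age, the additive limma model called 0 of the 103 pathway genes, with 1 at an unadjusted p under 0.05. Over all 13073 probe sets it called 2, or 0.0153%, and 3.36% had an unadjusted p under 0.05.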

How the data were processed

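Liver RNA was measured on 4 Affymetrix Mouse Gene 1.0 ST arrays. The authors deposited log2 values, and the submitters' processing notes name RMA and Affymetrix Expression Console 1.0v. RMA corrects background, quantile normalizes arrays and summarises probes, which shrinks differences of weak signals and removes any change in total RNA. The sources used here do not say which arrays were normalized in 1 run, which build the annotation used or, beyond RMA's usual log2, the log base. An array has no read depth, and 1 array per group limits the precision.

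The platform table gave 1 symbol to 21789 of the 35556 probe sets and several to 1621. The 12146 it does not list are unnamed here. Gene identifiers, looked up in RefSeq for GRCm38.p6, changed 0 symbols. The additive test and the backgrounds used probe sets with a 4-array mean above the 40th percentile, 3.37. The test was lmFit and eBayes with an intensity trend (limma 3.58.1, R 4.3.3), at an adjusted p of 0.05, with a prior of 10.7 degrees of freedom. On 20 simulated sets of 13073 probe sets it recovered 93 to 100% of 2-fold and 42 to 92% of 1.5-fold genotype changes. Unchanged probe sets made up a median of 13.9% of calls, from 1.39 to 23.6%, so the nominal share of 0.05 was not held. The sets had 200 changed probe sets each, noise drawn from the fitted model and no spread between pools. "Rose" and "fell" are used only for calls of this test.

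The members and lists were chosen with earlier results of these data known. Besides the members and Sirt6, the text names the 2 highest and 2 lowest genes of each pathway list and those 1.5-fold apart at both ages, the 2 highest and 2 lowest of each marker list it describes, and the 3 nearest profiles of the 3 members with the widest range. Genes named beside these are given for a direct contrast within a list, or are marked as named after their values were seen. Motifs were searched in the 250 bases before each start site, and 7 of the 10 members had such a window in the RefSeq table. Alternatives were a repeated quantile normalization, median centring, a fold of 2, averaged probe sets, no filter and no trend.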

Additional observations from a re-analysis of the deposited data

How the results depend on the processing

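The count of members at least 1.5-fold apart at both ages was 1 under each alternative run. That at 2 months was 1 instead of 2 with a fold of 2, where Id1 no longer counted. Averaging probe sets could not change these counts, because each member had 1 probe set. Of 20 recomputed mean KO minus WT differences of members, 13 moved by less than the spread between the ages and 7 by more, by 0.06 on the log2 scale at most. Among members past the fold at both ages 0 turned sign. That check covered Hamp2 alone, whose mean difference of 2.36 shifts of this size could not turn. Median centring moved the median of all probe sets at 2 months to 0.09, against 0.02 as deposited. The number of pathway genes called for genotype was 16, but 8 without the filter on low values and 9 without the intensity trend. The shares of all probe sets called under these alternatives are not given here, so these counts cannot be set beside them. Smad9, Hes1, Il6ra, Socs3, Il1b, Steap4, Lcn2 and Cpox stayed called under all 5 alternatives. Creb3l3, Nfs1 and Abcb6 were also lost under median centring, and Flvcr1 was lost when probe sets were averaged. Repeated quantile normalization gave 23 called genes, all 16 among them. For age 0 pathway genes were called under every alternative. The additive model already compares KO with WT within each age. No paired analysis was possible beyond it because the labels number no replicates. No group had the 4 or more arrays that a check for outlying samples needs.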

Other observations

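Among the pathway probe sets, 0 of 110 were 1.5-fold apart between 8 and 2 months in the KO-labelled arrays and 2 were in the WT-labelled arrays, where 0.849% and 0.719% of all probe sets were. The genes of those 2, Fgl1 and Steap2, were named after their values were seen. The hepatokine Fgl1, which in mice restrains BMP-driven hepcidin expression, read 9.63 at 8 months and 9.68 at 2 months in the KO-labelled arrays, against 9.76 and 9.14 in the WT-labelled arrays, so the WT-labelled array at 2 months was the low one. The metalloreductase Steap2 read 4.03 and 3.93 in the KO-labelled arrays at 8 and 2 months, against 3.72 and 4.49 in the WT-labelled arrays. The WT-labelled array at 2 months was the high one. A second probe set of Steap2, below the filter on low values, read 2.09 and 2.28, against 2.14 and 2.31.

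Among stellate cell markers 4 of 12 fell and 0 rose in the additive limma model, where 3.87% and 6.11% of all probe sets did. The smooth muscle actin Acta2 fell by 1.94 on the log2 scale as the mean of both ages. The collagen gene Col1a2 fell by 0.72, with -0.45 at 8 months and -0.99 at 2 months. The highest were Reln, at 0.27 at 8 months and 0.32 at 2 months, and Pdgfrb, at 0.10 and 0.12, without passing. The retinol acyltransferase Lrat, which marks quiescent stellate cells and is named here after its values were seen, was at -0.13 at 8 months and 0.26 at 2 months.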
